A study of Mus musculus with 35 samples.

Results

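The genes described here are the solute carriers, ion channels and ion pumps on a NanoString panel read in mouse hippocampus. They were chosen by symbol alone, as every gene whose name begins with a family stem for solute carriers (Slc), potassium (Kcn), sodium (Scn), calcium (Cacn), pacemaker (Hcn), chloride (Clcn) or Trp channels, sodium or calcium pumps (Atp1, Atp2), or Fxyd proteins. The rule took 23 of the 760 measured genes and used no measured value. By stem they are solute carriers, genes of channels or their partners, and genes of pumps or a pump regulator.

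All 35 mice were 18 months old and on the C57BL6/J background, and 5 mg of hippocampal tissue was used for RNA. The 3xTgAD mouse (Tg(APPSwe,tauP301)L1Lfa) carries human APP and tau transgenes. The 3xTgAD/PolB+/- mouse carries in addition a heterozygous Polbtm1Rsky allele, so that 1 copy of the gene of DNA polymerase beta is lost. Treated mice received Urolithin A, which gut bacteria make from plant ellagitannins, by oral gavage at 200 mg/kg per day for 5 months. The groups were 3xTgAD/PolB+/- with Urolithin A (ADPolB_UA, 6 mice), 3xTgAD/PolB+/- given vehicle (ADPolB_veh, 7 mice), treated 3xTgAD (AD_UA, 7 mice), 3xTgAD given vehicle (AD_veh, 8 mice), and wild-type C57BL6/J given vehicle (WT_veh, 7 mice). There were 18 females and 17 males. Females and males were 4 and 2 in ADPolB_UA, 3 and 4 in ADPolB_veh and in AD_UA, 4 and 4 in AD_veh, and 4 and 3 in WT_veh. Fitted differences below are adjusted for sex, while ranges, medians and counts of mice are not. No wild-type mouse was treated, and no group carried the Polb allele without the transgenes, so both effects could be measured on the 3xTgAD background only.

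Neurons spend much of their energy on moving ions. The sodium-potassium pump keeps the gradients on which firing rests, potassium and sodium channels shape the firing itself, and calcium pumps and sodium-calcium exchangers return calcium to its resting level after each burst of activity. Solute carriers bring in glucose, amino acids, inositol, choline and metal ions, load transmitter into vesicles, and set chloride and pH, and many of them are made mainly by glia or by the vessel wall and not by neurons.

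Of the 23 genes 22 had an entry among the RefSeq promoters of assembly GRCm38.p6, each running from 250 bases before to 50 bases after the start site. The promoters of Slc44a1, Slc6a17 and Slc41a1 are shown because these genes carry the main patterns below: Slc44a1 moved with myelin genes from mouse to mouse, Slc6a17 moved against them, and Slc41a1 had the smallest p of the 23 genes in both vehicle comparisons with WT_veh. Capitals mark GC boxes (GGGCGG on either strand, overlapping matches counted). They lie at chr4:53440163-53440462 on the plus strand, chr3:107517969-107518268 on the minus strand and chr1:131827762-131828061 on the plus strand, in that order.
Slc44a1: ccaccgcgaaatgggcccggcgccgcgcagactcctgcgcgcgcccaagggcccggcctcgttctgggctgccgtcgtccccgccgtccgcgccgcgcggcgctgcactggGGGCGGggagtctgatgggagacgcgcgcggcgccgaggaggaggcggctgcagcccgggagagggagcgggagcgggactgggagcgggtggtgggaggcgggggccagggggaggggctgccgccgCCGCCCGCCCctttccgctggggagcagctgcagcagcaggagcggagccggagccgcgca
Slc6a17: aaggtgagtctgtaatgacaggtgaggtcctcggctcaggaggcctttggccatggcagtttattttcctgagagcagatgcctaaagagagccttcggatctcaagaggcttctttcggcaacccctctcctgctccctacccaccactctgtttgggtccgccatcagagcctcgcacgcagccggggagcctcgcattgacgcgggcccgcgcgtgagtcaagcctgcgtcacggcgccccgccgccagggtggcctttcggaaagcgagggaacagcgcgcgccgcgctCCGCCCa
Slc41a1: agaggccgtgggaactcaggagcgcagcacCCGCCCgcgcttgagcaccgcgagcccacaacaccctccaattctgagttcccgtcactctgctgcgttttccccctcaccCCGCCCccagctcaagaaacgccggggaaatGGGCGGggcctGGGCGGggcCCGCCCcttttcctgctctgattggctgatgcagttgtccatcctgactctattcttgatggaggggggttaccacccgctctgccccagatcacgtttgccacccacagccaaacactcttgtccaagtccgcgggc
The GC box was found 3 times in the Slc44a1 window, 1 time in the Slc6a17 window and 5 times in the Slc41a1 window. It was in 15 of the 22 promoters, and in 35.9% of 27024 promoters of the same length. Letters bound by the oligodendrocyte factor MYRF (CTGGCAC and CTGGTAC, both strands) were in 0 and 2 of the 22, with 5.03% and 2.22% of all promoters holding them. The 2 with CTGGTAC were Atp2b2 and Slc2a13. Letters bound by SOX factors (ACAAAG and ACAATG, both strands) were in 1 each, Slc38a2 and Kcnq5, with 18.7% and 12.8% of all promoters holding them. None of these 4 motifs was in the windows shown.

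Values are log2 levels after normalization, read in whole hippocampal tissue, in which fewer cells of a type and less RNA per cell cannot be told apart. Depth in raw counts is unknown, and the number of mice limits the precision. The labels do not tie the replicate numbers to litters, and limma p-values set a difference against the spread between these mice. Of the tissue markers listed for hippocampus and for excitatory neurons none was measured, so the dissection could not be checked against them. The mean of the striatal markers Adora2a and Pde1b was 10.56 in AD_veh 2, 9.42 in AD_UA 3, 8.43 in AD_UA 8 and 7.57 in ADPolB_UA 6, against at most 6.67 in the other 31 mice, so several results are also given without the first 3 or all 4 of these mice. The mean of 21 myelin and oligodendrocyte markers ran from 8.26 in WT_veh 6 to 11.27 in AD_veh 2, with group medians of 9.84 in ADPolB_UA, 10.29 in ADPolB_veh, 9.48 in AD_UA, 9.63 in AD_veh and 9.42 in WT_veh.

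None of the 23 genes passed the threshold in any comparison (limma, adjusted p below 0.05 over all 760 genes). The share of all genes past it was 0.132% for AD_UA, ADPolB_UA, AD_veh and the mean of the 4 transgenic groups, each against WT_veh, and for the test over all 5 groups. It was 0.0% in the other comparisons, namely ADPolB_veh against WT_veh, ADPolB_veh against AD_veh, both Urolithin A comparisons, ADPolB_UA against AD_UA, Urolithin A averaged over genotypes, its interaction with genotype, and sex. What follows therefore describes the genes with the smallest p-values by their levels. The smallest unadjusted p was that of Kcnq5 in AD_UA against WT_veh, and it passed the threshold when AD_UA 2 was left out (difference 0.70, limma adjusted p = 0.0487). Over the fits that left out 1 mouse of these 2 groups, 0.70 was the largest Kcnq5 difference. The smallest was 0.51, without WT_veh 5, the mouse lowest in Kcnq5.

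For the transgenes, 3 of the 23 genes had an unadjusted limma p below 0.05 in AD_veh against WT_veh, beside 6.58% of all genes. They were Slc41a1, Kcnq5 and Atp2b1, all higher in AD_veh, beside 4.34% of all genes higher and 2.24% lower. Without the 3 mice highest in striatal markers Cacng8 differed by 0.36 as well (unadjusted p = 0.0309), against a difference of 0.20 with all mice. The count was 5 without WT_veh 5 or AD_veh 5. In all 14 of the 23 differences lay above 0, beside 60.8% of all genes, and the median was 0.09, against 0.04 over all genes. In ADPolB_veh against WT_veh there were 4, Slc41a1, Slc44a1, Slc9a9 and Slc44a2, all higher in ADPolB_veh, beside 25.8% of all genes (20.7% higher and 5.13% lower). That count was 7 without WT_veh 5 or WT_veh 8, and 2 without WT_veh 6, WT_veh 7 or ADPolB_veh 6. Here 16 differences lay above 0, beside 61.4% of all genes, with a median of 0.18 against 0.09. With each mouse centred on its own median the median of all genes moved by -0.14, and 13 of the 23 then lay above 0. In ADPolB_veh against AD_veh there were 2, Fxyd5 (higher in ADPolB_veh) and Kcnq5 (lower), beside 4.34% of all genes (3.16% higher and 1.18% lower). Without the 3 mice highest in striatal markers Kcnq5 had an unadjusted p of 0.0709 and Slc9a9 one of 0.045. The count was 1 without AD_veh 4, AD_veh 7, ADPolB_veh 1, ADPolB_veh 3, ADPolB_veh 6 or ADPolB_veh 7. In this comparison 16 differences lay above 0 (13 with centring), beside 60.0% of all genes. These comparisons share mice and are not independent of each other.

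For Urolithin A, 3 of the 23 had an unadjusted limma p below 0.05 in AD_UA against AD_veh (Slc6a17 and Atp2b2 higher in AD_UA, Slc41a1 lower), beside 9.34% of all genes (3.95% higher and 5.39% lower). The count was 5 without AD_UA 1, 1 without AD_UA 3, AD_UA 7 or AD_UA 8, and 1 without the 3 mice highest in striatal markers. That 1 gene was Cacng8 (difference -0.37, unadjusted p = 0.0426), and none of the 3 genes named. Of the 23 differences 12 lay above 0 (16 with centring), beside 35.7% of all genes. In ADPolB_UA against ADPolB_veh there were 3, Slc8a2, Atp2b1 and Slc41a1, all lower in ADPolB_UA, beside 5.66% of all genes (2.76% higher and 2.89% lower). It was 5 without ADPolB_veh 2, and 5 without the 3 mice highest in striatal markers. Here 10 differences lay above 0, beside 46.6% of all genes. Averaged over both genotypes there were 6, beside 11.8% of all genes (5.13% higher and 6.71% lower). Those were Atp2b1, Slc41a1, Cacng8, Slc8a2 and Slc2a1, lower with Urolithin A, and Slc6a17, higher with it. Without the 3 mice highest in striatal markers Slc2a1 had an unadjusted p of 0.13, Slc6a17 one of 0.0557 and Scn8a one of 0.029. The average is built from the same mice as the comparisons before it. Its median difference over the 23 genes was -0.01, against -0.03 over all genes, and 10 lay above 0 (15 with centring), beside 40.4% of all genes.

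Whether Urolithin A acted differently in the 2 genotypes was tested as the effect in 3xTgAD/PolB+/- minus that in 3xTgAD. Only Slc8a2 had an unadjusted limma p below 0.05 (1 of 23), beside 3.82% of all genes (2.37% higher and 1.45% lower), and 9 differences lay above 0, beside 61.1% of all genes. Without AD_veh 2, AD_UA 3 and AD_UA 8 the value of Slc8a2 was -0.39 (unadjusted p = 0.0792), and Fxyd5 was the 1 gene below 0.05, with -0.64 (unadjusted p = 0.0264, adjusted p = 0.944). With all mice the count was 4 without AD_veh 2 or AD_UA 1, 3 without AD_veh 1, ADPolB_veh 4 or AD_UA 5, and 2 without AD_veh 5, AD_veh 6, ADPolB_veh 1, ADPolB_veh 2, ADPolB_veh 7, AD_UA 2, AD_UA 3, ADPolB_UA 1, ADPolB_UA 3 or ADPolB_UA 6.

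Set against WT_veh, the treated groups gave 3 genes in AD_UA at an unadjusted limma p below 0.05 (Kcnq5, Atp2b2 and Slc9a9, all higher), beside 5.39% of all genes (1.97% higher and 3.42% lower), and 1 without AD_UA 3 or without the 3 mice highest in striatal markers (Kcnq5 in the last case). There 16 differences lay above 0, beside 49.9% of all genes. ADPolB_UA gave 2 (Kcnq5 higher, Slc8a2 lower), beside 10% of all genes (7.63% higher and 2.37% lower). It was 1 without WT_veh 1, ADPolB_UA 1, ADPolB_UA 2 or ADPolB_UA 5, 0 without ADPolB_UA 4, and 4 without the 3 mice highest in striatal markers. There 12 differences lay above 0 (7 with quantile normalization), beside 66.4% of all genes. ADPolB_UA against AD_UA gave 2 (Slc8a2 and Atp2b2, both lower), beside 12.6% of all genes (9.21% higher and 3.42% lower), with 11 differences above 0 (7 with quantile normalization), beside 69.2%. That count was 8 without ADPolB_UA 6, 7 without AD_UA 5, 4 without AD_UA 1, and 1 without AD_UA 3, AD_UA 8, ADPolB_UA 1 or ADPolB_UA 2. It was also 1 without the 3 mice highest in striatal markers. The mean of the 4 transgenic groups against WT_veh gave 4 (Kcnq5, Slc41a1, Slc9a9 and Slc44a1, all higher), beside 12.2% of all genes (9.21% higher and 3.03% lower), with 14 differences above 0, beside 60.7%. It was 2 without WT_veh 1, WT_veh 2 or WT_veh 7. The test over all 5 groups gave 4 (Slc41a1, Kcnq5, Atp2b1 and Slc8a2), beside 13.6% of all genes.

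**Figure D1:**
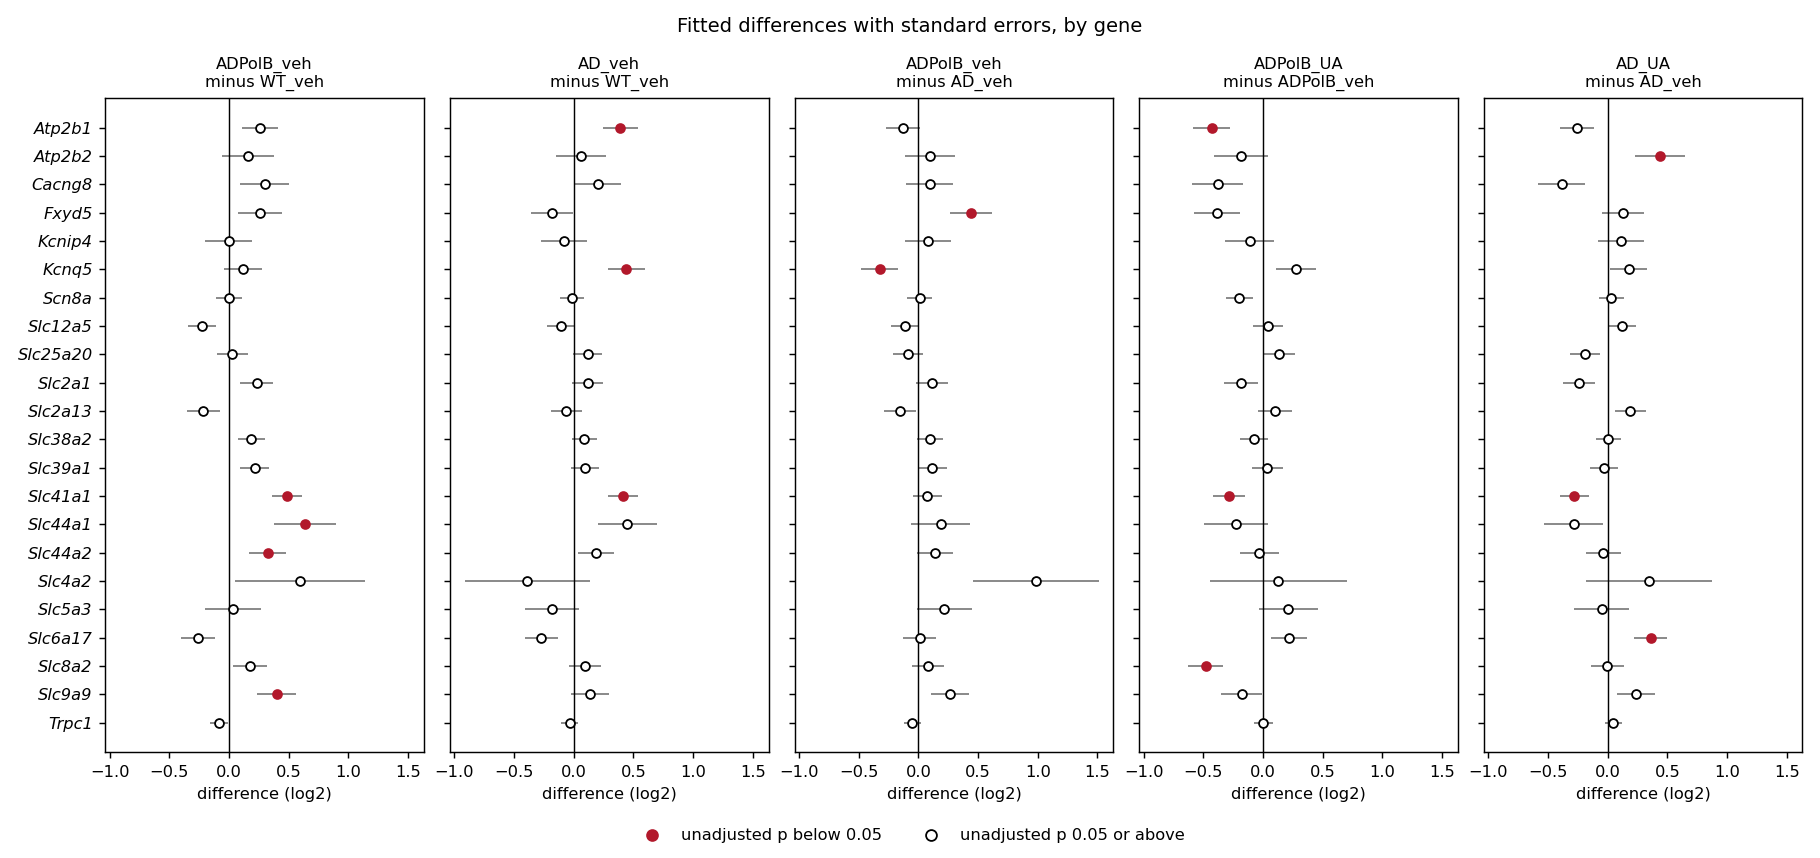
Fitted log2 differences (x axis, with the standard error as a bar) of 22 of the 23 genes (rows) in 5 comparisons, the group named first minus the other. Filled red points have an unadjusted limma p below 0.05, of which there are 4, 3, 2, 3 and 3 from left to right, and Slc4a2 has by far the widest bars.

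Slc41a1 encodes a magnesium transporter of the plasma membrane. Its level ran from 7.59 to 7.97 (median 7.81) in ADPolB_UA, from 7.74 to 8.46 (median 8.12) in ADPolB_veh, from 7.31 to 8.10 (median 7.61) in AD_UA, from 7.70 to 8.19 (median 8.00) in AD_veh and from 7.17 to 8.04 (median 7.59) in WT_veh. Both vehicle transgenic groups lay high and the treated groups between them and WT_veh, with all ranges overlapping. All 7 ADPolB_veh mice and all 8 AD_veh mice lay above the WT_veh median. The fitted difference was 0.48 (SE 0.13, 1.40-fold, unadjusted p = 0.000698, adjusted p = 0.133) in ADPolB_veh against WT_veh and 0.41 (SE 0.12, 1.33-fold, unadjusted p = 0.00245, adjusted p = 0.311) in AD_veh against WT_veh. With quantile normalization the first of these was 0.27 (unadjusted p = 0.0117). Urolithin A went with a difference of -0.29 (SE 0.14, adjusted p = 0.85) in 3xTgAD/PolB+/- mice and of -0.28 (SE 0.12, adjusted p = 0.483) in 3xTgAD mice. All 6 ADPolB_UA mice were below the ADPolB_veh median, and 5 of 7 AD_UA mice were below the AD_veh median. Each vehicle transgenic group stands in a comparison with WT_veh and in one with its treated group, so a high value in it pushes the 2 differences in opposite directions. Without AD_veh 2, AD_UA 3 and AD_UA 8 the difference of AD_UA against AD_veh was -0.16 (unadjusted p = 0.261).

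Kcnq5 encodes a subunit of the potassium channels behind the M-current, which restrains repetitive firing. Its level ran from 8.28 to 9.12 (median 8.80) in ADPolB_UA, from 8.09 to 8.93 (median 8.38) in ADPolB_veh, from 8.40 to 9.38 (median 9.01) in AD_UA, from 8.34 to 9.33 (median 8.72) in AD_veh and from 7.77 to 8.58 (median 8.36) in WT_veh. It was high in AD_UA, AD_veh and ADPolB_UA and low in WT_veh and ADPolB_veh, with overlap between all groups. The difference from WT_veh was 0.61 in AD_UA (SE 0.16, 1.53-fold, unadjusted p = 0.000577, adjusted p = 0.146), and 6 of 7 AD_UA mice lay above the highest WT_veh mouse. It was 0.44 in AD_veh (SE 0.15, 1.36-fold, adjusted p = 0.427), where 5 of 8 mice lay above the highest WT_veh mouse. In ADPolB_UA it was 0.39 (SE 0.17, adjusted p = 0.463). Against AD_veh, the ADPolB_veh mice were lower by a fitted difference of -0.33 (SE 0.15, unadjusted p = 0.0439, adjusted p = 0.873). Kcnip4, a partner protein of A-type potassium channels, lay between 8.86 and 10.49 over all mice, with group means from 9.64 in ADPolB_UA to 9.78 in AD_UA.

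**Figure D2:**
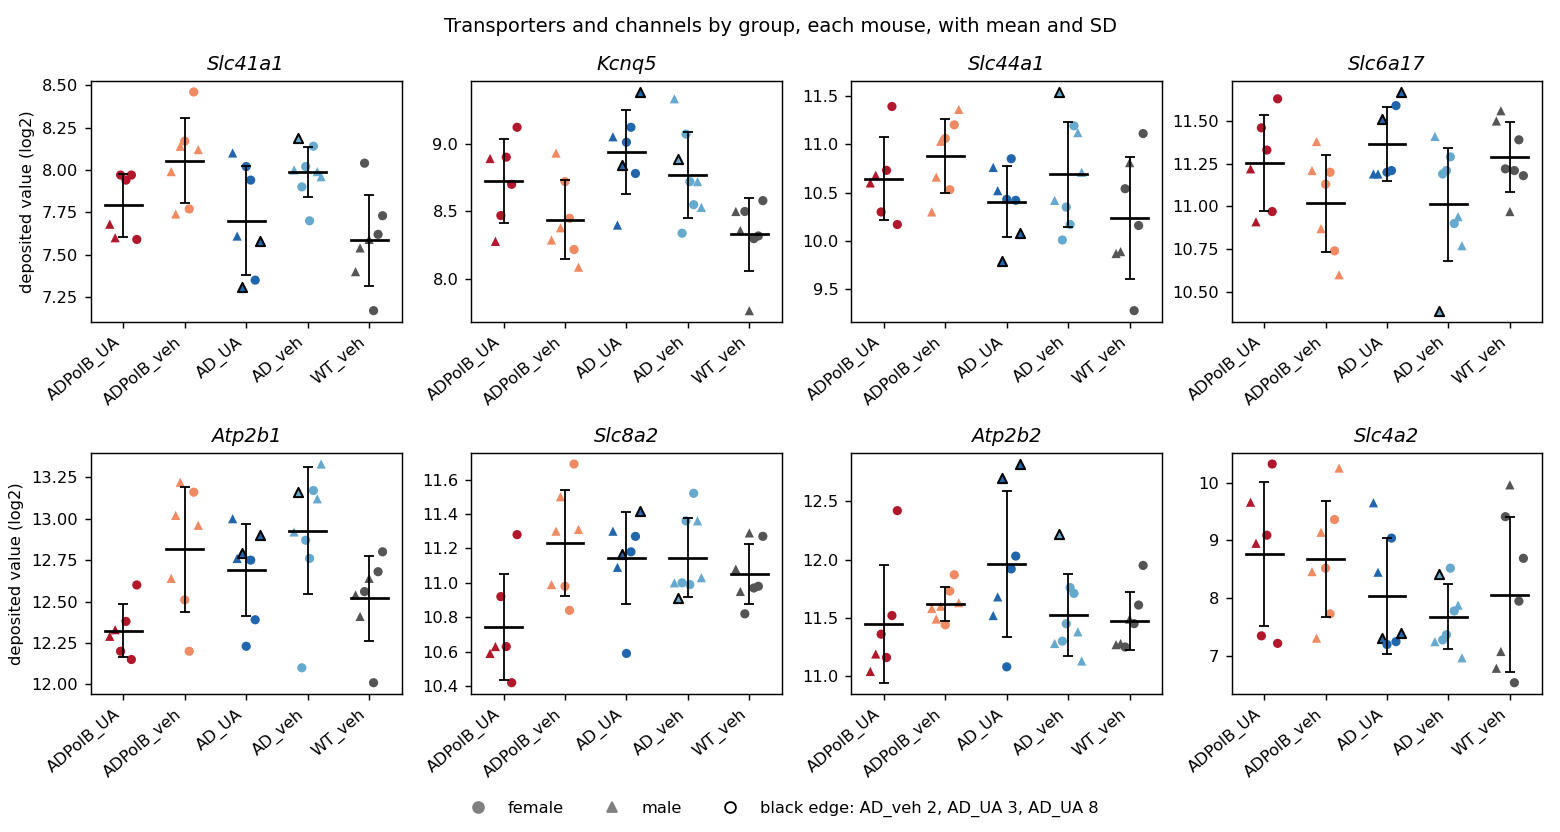
Deposited log2 values (y axis) of 8 genes in every mouse, by group (x axis), with circles for females and triangles for males. Horizontal lines are group means and bars the SD, and black edges mark the 3 mice highest in striatal markers. All 7 ADPolB_veh and all 8 AD_veh mice lie above the WT_veh median of Slc41a1, and Slc4a2 spreads widely in every group.

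Calcium leaves the neuron through plasma membrane calcium pumps, of which Atp2b1 and Atp2b2 encode 2 forms, and through sodium-calcium exchangers such as the one encoded by Slc8a2. Atp2b1 ran from 12.15 to 12.60 (median 12.31) in ADPolB_UA, from 12.20 to 13.22 (median 12.96) in ADPolB_veh, from 12.23 to 13.00 (median 12.76) in AD_UA, from 12.10 to 13.33 (median 13.02) in AD_veh and from 12.01 to 12.80 (median 12.56) in WT_veh. The vehicle transgenic groups lay highest and ADPolB_UA lowest, again with overlap. In AD_veh 6 of 8 mice were above the highest WT_veh mouse, and the difference was 0.39 (SE 0.14, 1.31-fold, unadjusted p = 0.0111, adjusted p = 0.482). With the myelin marker mean as a covariate it was 0.27 (unadjusted p = 0.0514). With Urolithin A all 6 ADPolB_UA mice were below the ADPolB_veh median (difference -0.43, SE 0.16, 0.741-fold, adjusted p = 0.563). All 7 AD_UA mice were below the AD_veh median (difference -0.26, SE 0.14, adjusted p = 0.52). Averaged over both genotypes the difference with Urolithin A was -0.34 (SE 0.11, unadjusted p = 0.00285, adjusted p = 0.235), the smallest p of the 23 genes in that comparison.

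Slc8a2 ran from 10.42 to 11.28 (median 10.63) in ADPolB_UA, from 10.84 to 11.69 (median 11.30) in ADPolB_veh, from 10.59 to 11.42 (median 11.18) in AD_UA, from 10.91 to 11.52 (median 11.02) in AD_veh and from 10.82 to 11.29 (median 10.98) in WT_veh. ADPolB_UA was the low group, and 4 of its 6 mice were below the lowest ADPolB_veh mouse. The difference of ADPolB_UA from ADPolB_veh was -0.48 (SE 0.15, 0.717-fold, unadjusted p = 0.00258, adjusted p = 0.381). AD_UA and AD_veh had the same mean of 11.15. The test of the difference between these effects gave -0.48 (SE 0.20, unadjusted p = 0.0231, adjusted p = 0.96), and ADPolB_UA against AD_UA gave -0.40 (SE 0.15, adjusted p = 0.296).

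Atp2b2 ran from 11.04 to 12.42 (median 11.28) in ADPolB_UA, from 11.44 to 11.87 (median 11.60) in ADPolB_veh, from 11.08 to 12.82 (median 11.92) in AD_UA, from 11.13 to 12.22 (median 11.42) in AD_veh and from 11.25 to 11.95 (median 11.45) in WT_veh. The 4 highest values of all 35 mice were 12.82 in AD_UA 8, 12.70 in AD_UA 3, 12.42 in ADPolB_UA 6 and 12.22 in AD_veh 2, which are the 4 mice highest in striatal markers. The difference of AD_UA from AD_veh was 0.44 (SE 0.21, unadjusted p = 0.0425, adjusted p = 0.483) with all mice and 0.21 (unadjusted p = 0.221) without AD_UA 3, AD_UA 8 and AD_veh 2. The difference of AD_UA from WT_veh was 0.50 (SE 0.22, adjusted p = 0.679), and 0.17 without the 3 mice. For ADPolB_UA against AD_UA it was -0.53 (SE 0.23, adjusted p = 0.317), and -0.21 without them.

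By p, a gene of choline transport came second to Slc41a1 in ADPolB_veh against WT_veh. Slc44a1 encodes a choline transporter-like protein that supplies choline for membrane lipids. It ran from 10.17 to 11.39 (median 10.64) in ADPolB_UA, from 10.30 to 11.36 (median 11.03) in ADPolB_veh, from 9.79 to 10.85 (median 10.43) in AD_UA, from 10.01 to 11.54 (median 10.57) in AD_veh and from 9.28 to 11.11 (median 10.16) in WT_veh. ADPolB_veh was high and WT_veh low, and the WT_veh range covered most of that of ADPolB_veh. The difference was 0.64 (SE 0.26, 1.55-fold, unadjusted p = 0.0185, adjusted p = 0.18) in ADPolB_veh and 0.45 (SE 0.25, adjusted p = 0.588) in AD_veh, each against WT_veh. With the myelin marker mean as a covariate the difference of ADPolB_veh from WT_veh was 0.10 (unadjusted p = 0.231). Slc44a2, of the same family, differed by 0.32 (SE 0.16, adjusted p = 0.188) in ADPolB_veh against WT_veh, by 0.07 (unadjusted p = 0.553) with that covariate and by 0.12 (unadjusted p = 0.245) with quantile normalization. Its values ran from 7.21 to 8.30 in ADPolB_veh and from 7.12 to 7.78 in WT_veh.

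Slc6a17 encodes a transporter that carries neutral amino acids into synaptic vesicles. It ran from 10.91 to 11.63 (median 11.28) in ADPolB_UA, from 10.60 to 11.38 (median 11.13) in ADPolB_veh, from 11.19 to 11.67 (median 11.21) in AD_UA, from 10.39 to 11.41 (median 11.07) in AD_veh and from 10.97 to 11.56 (median 11.22) in WT_veh. The vehicle transgenic groups were low and their ranges overlapped those of the rest. All 7 AD_UA mice lay above the AD_veh median (difference 0.36, SE 0.14, 1.28-fold, unadjusted p = 0.0143, adjusted p = 0.472), and the difference was 0.17 (unadjusted p = 0.229) without AD_UA 3, AD_UA 8 and AD_veh 2. In ADPolB_UA against ADPolB_veh it was 0.22 (SE 0.15, adjusted p = 0.88). Averaged over both genotypes the difference with Urolithin A was 0.29 (SE 0.10, unadjusted p = 0.00818, adjusted p = 0.289). Against WT_veh it was -0.26 in ADPolB_veh (SE 0.14, adjusted p = 0.227) and -0.27 in AD_veh (SE 0.14, adjusted p = 0.588). Slc38a2, a sodium-coupled carrier of neutral amino acids, lay between 9.34 and 10.15 over all mice.

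Of the genes for chloride, pH and sodium, Slc9a9 encodes an endosomal sodium-proton exchanger. It ran from 7.52 to 8.65 (median 8.21) in ADPolB_veh and from 7.33 to 8.24 (median 7.65) in WT_veh, with a difference of 0.40 (SE 0.16, 1.32-fold, unadjusted p = 0.0205, adjusted p = 0.18). With the myelin marker mean as a covariate that difference was 0.25 (unadjusted p = 0.124), and with quantile normalization it was 0.21 (unadjusted p = 0.134). Slc12a5 encodes the neuronal potassium-chloride cotransporter that keeps chloride low, so that GABA inhibits. Its group means ran from 11.41 ± 0.15 (SD, n = 7) in ADPolB_veh to 11.65 ± 0.33 (SD, n = 7) in AD_UA, and the difference of ADPolB_veh from WT_veh was -0.23 (SE 0.12, adjusted p = 0.21). Slc4a2 encodes a chloride-bicarbonate exchanger found in many epithelia. Its values ran from 7.22 to 10.32 in ADPolB_UA, from 7.31 to 10.25 in ADPolB_veh, from 7.20 to 9.65 in AD_UA, from 6.97 to 8.52 in AD_veh and from 6.54 to 9.96 in WT_veh. Its SD between mice within group and sex was 1.06, larger than that of 99.2% of all genes, and its difference of 0.98 in ADPolB_veh against AD_veh (SE 0.53, adjusted p = 0.873) lay within that spread. Scn8a, a sodium channel of the axon initial segment, lay between 9.56 and 10.41 over the 35 mice.

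Fxyd5 encodes a small membrane protein that modulates the sodium-potassium pump. It ran from 7.24 to 8.29 (median 7.64) in ADPolB_UA, from 7.18 to 8.54 (median 7.94) in ADPolB_veh, from 7.08 to 8.23 (median 7.67) in AD_UA, from 6.93 to 8.23 (median 7.46) in AD_veh and from 7.52 to 8.25 (median 7.67) in WT_veh. ADPolB_veh was the high group, with all ranges overlapping, and its difference from AD_veh was 0.44 (SE 0.18, 1.36-fold, unadjusted p = 0.0175, adjusted p = 0.873), or 0.30 (unadjusted p = 0.102) with quantile normalization. By sex, the 18 females ran from 7.17 to 8.54 (median 7.85) and the 17 males from 6.93 to 8.42 (median 7.52). Females were higher by 0.40 (SE 0.12, 1.32-fold, unadjusted p = 0.00192, adjusted p = 0.248). With the myelin marker mean as a covariate this sex difference of Fxyd5 was 0.40 (unadjusted p = 0.00196, adjusted p = 0.0497). The adjusted p then passed the threshold, while the difference and the unadjusted p of Fxyd5 hardly moved. The lower adjusted p thus came from the p-values of all genes in that fit, not from a larger sex difference in Fxyd5. Atp2b1 was the other gene with an unadjusted p below 0.05 for sex, of 2 beside 8.55% of all genes (7.89% higher and 0.658% lower in females). Of the 23 differences 13 lay above 0, beside 67.0% of all genes. Atp2b1 ran from 12.01 to 13.17 (median 12.54) in females and from 12.29 to 13.33 (median 12.90) in males, a difference of -0.25 (SE 0.10, adjusted p = 0.403). Without the 3 mice highest in striatal markers Atp2b2 differed by sex by 0.24 (unadjusted p = 0.0295). The effect of Urolithin A differed between the sexes at an unadjusted limma p below 0.05 for 0 of the 23 genes, beside 0.526% of all genes, and at an adjusted p below 0.05 for 0 of all genes.

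The carriers of sugars, osmolytes, mitochondrial fuel and zinc, and the remaining channel genes, were read in the same way. Slc2a1, the glucose transporter of the blood-brain barrier, lay between 7.47 and 8.71, and its difference with Urolithin A averaged over genotypes was -0.21 (SE 0.10, unadjusted p = 0.0375, adjusted p = 0.404). Slc5a3, a sodium-coupled importer of myo-inositol, lay between 7.69 and 9.83, with group means from 8.71 in AD_UA to 9.24 in ADPolB_UA. Slc2a13, a proton-coupled importer of myo-inositol, lay between 8.82 and 9.93. Its 4 highest values were 9.93 in AD_UA 3, 9.92 in AD_UA 8, 9.73 in AD_veh 2 and 9.71 in ADPolB_UA 6, the same 4 mice as for Atp2b2. Slc25a20, the carnitine-acylcarnitine carrier of mitochondria, lay between 7.06 and 7.95, and Slc39a1, a zinc importer, between 7.60 and 8.42. Cacng8, an auxiliary subunit of AMPA receptors enriched in hippocampus, averaged 10.88 with Urolithin A and 11.26 with vehicle over the transgenic mice (difference -0.38, SE 0.14, unadjusted p = 0.013, adjusted p = 0.294). Trpc1, a subunit of cation channels, had the smallest spread of the 23 genes, with a within-group SD of 0.126 and values from 9.31 to 9.94. The median SD of the 23 genes was 0.271, and it was 0.271 over all genes too.

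Further values among the 5 smallest p-values of a comparison follow. Some of them are among the genes counted above at an unadjusted p below 0.05, and none passed the threshold. In ADPolB_UA against ADPolB_veh, Fxyd5 differed by -0.39 (SE 0.19, limma adjusted p = 0.855) and Scn8a by -0.20 (SE 0.11, adjusted p = 0.855). In ADPolB_UA against AD_UA, Slc5a3 differed by 0.48 (SE 0.25), Atp2b1 by -0.30 (SE 0.16) and Scn8a by -0.22 (SE 0.11), each with an adjusted p of 0.423. In ADPolB_veh against AD_veh, Slc9a9 differed by 0.26 (SE 0.16) and Slc2a13 by -0.15 (SE 0.13). In AD_UA against AD_veh, Cacng8 differed by -0.38 (SE 0.20) and Slc2a1 by -0.24 (SE 0.13), each with an adjusted p of 0.52. Against WT_veh, ADPolB_UA differed by -0.30 in Slc8a2 (SE 0.15), 0.25 in Slc39a1 (SE 0.13), -0.20 in Scn8a (SE 0.11) and 0.29 in Slc44a2 (SE 0.16), each with an adjusted p of 0.463. AD_UA differed from WT_veh by 0.37 in Slc9a9 (SE 0.16, adjusted p = 0.685), by 0.13 in Slc41a1 (SE 0.13) and by -0.24 in Slc5a3 (SE 0.24). For the transgenic mean against WT_veh the differences were 0.39 in Kcnq5 (SE 0.13, adjusted p = 0.302), 0.31 in Slc41a1 (SE 0.10, adjusted p = 0.302), 0.42 in Slc44a1 (SE 0.20), 0.28 in Slc9a9 (SE 0.13) and 0.24 in Slc44a2 (SE 0.12). The genotype difference in the Urolithin A effect was -0.62 in Atp2b2 (SE 0.31), -0.51 in Fxyd5 (SE 0.26), -0.41 in Slc9a9 (SE 0.23) and 0.32 in Slc25a20 (SE 0.19), each with an adjusted p of 0.96. By sex, Slc38a2 differed by 0.13 (SE 0.07), Trpc1 by -0.07 (SE 0.05) and Slc5a3 by 0.19 (SE 0.15).

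Which cells a transporter gene moves with was followed from mouse to mouse, after group and sex had been removed from the gene and from the mean of each marker list (Pearson r and Spearman rho over 35 mice, two-sided permutation of mice with 100000 draws). The p-values were adjusted over 3763 relations, those of all genes with 5 marker lists, of which 115 involve the 23 genes. With the myelin list 13 of the 23 covaried at an adjusted p below 0.05, beside 63.7% of all genes. Of these 10 ran with the list and 3 against it, beside 45.1% and 18.7%. With the 8 microglial markers it was 8, beside 51.9% (6 with and 2 against, beside 39.0% and 12.9%). With the astrocyte markers Gja1 and Sox9 it was 12, beside 59.0% (7 with and 5 against, beside 41.8% and 17.2%). With the 4 endothelial markers it was 3, beside 22.8% (2 with and 1 against, beside 10.6% and 12.2%), and 0 without ADPolB_veh 3 and AD_veh 2, the 2 mice farthest from the median. For each of these 4 lists the count was a smaller share of the 23 genes than the share of all genes. The sample median moved with the myelin mean across mice (r = 0.94 after group and sex, as a description), so each relation is also given with every mouse centred on its median. Centring left 13, 8 and 12 at 11, 9 and 6, of which 6, 5 and 4 were the same genes in the same direction. The balance of directions turned with it. With centring 3 ran with the myelin list and 8 against it. It was 3 and 6 for the microglial list, and 1 and 5 for the astrocyte list. The share of all genes with centring is not given here.

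Slc44a1 followed the myelin markers closely (r = 0.96, rho = 0.97, permutation p = 1e-05 for both, which no draw can undercut, adjusted p = 6.92e-05). It was 0.96 without AD_veh 2 and ADPolB_UA 5, the 2 mice farthest from the median, and 0.94 with centring. Slc4a2 followed them too (r = 0.76, rho = 0.78, permutation p = 1e-05, adjusted p = 6.92e-05), with 0.77 without those 2 mice and 0.71 with centring. Slc44a2 had r = 0.77 and rho = 0.79 (permutation p = 1e-05, adjusted p = 6.92e-05), which was 0.70 without the 2 mice and 0.53 with centring. Neither Slc44a2 nor Slc44a1 was particular to this list. With the microglial markers Slc44a2 had r = 0.82 and rho = 0.74, and r = 0.69 with centring. Slc44a1 had r = 0.80 with the microglial and 0.77 with the astrocyte markers, and 0.71 and 0.39 with centring. Slc6a17 ran against the myelin markers (r = -0.76, rho = -0.76, permutation p = 1e-05, adjusted p = 6.92e-05), with -0.69 without the 2 mice and -0.85 with centring. It was not particular to this list either. Slc6a17 had r = -0.62 with the microglial and -0.63 with the astrocyte markers, and -0.63 and -0.30 with centring. Slc12a5 ran against the myelin markers as well (r = -0.57, rho = -0.64, permutation p = 0.00042 for r, adjusted p = 0.00164), with -0.61 without the 2 mice and -0.77 with centring. Over the 739 genes outside this list 185 had an r above 0.7 with it and 36 one below -0.7.

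**Figure D3:**
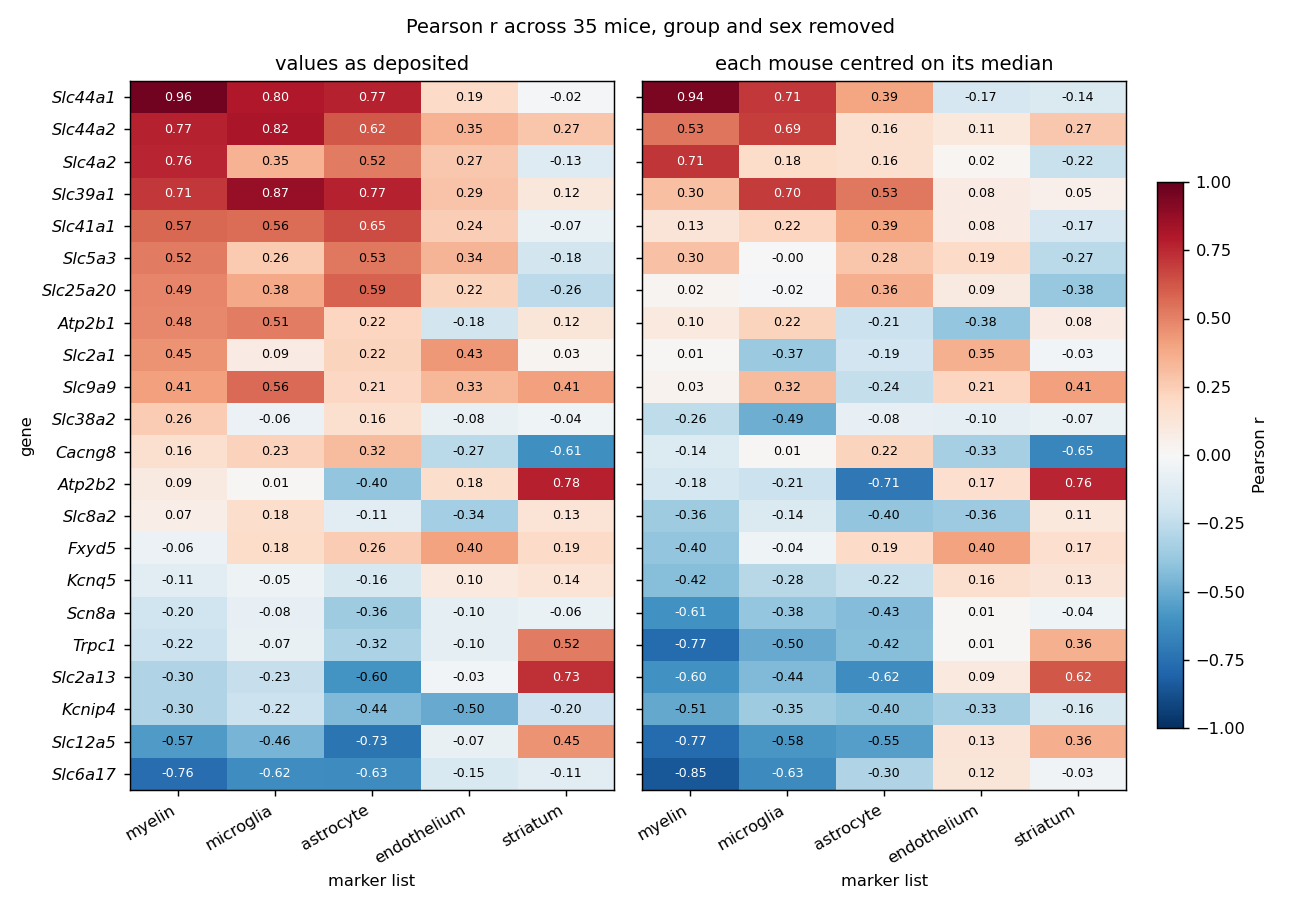
Pearson r over 35 mice between 22 of the 23 genes (rows) and the mean of 5 marker lists (columns), after removal of group and sex, with the values as deposited (left) and with each mouse centred on its median (right). Slc44a1 stands at 0.96 and 0.94 with myelin markers, Slc6a17 at -0.76 and -0.85, and Slc39a1 at 0.71 and 0.30, while the striatum column rests on 4 mice that stand apart.

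Slc39a1 went with microglial markers (r = 0.87, rho = 0.87, permutation p = 1e-05, adjusted p = 6.92e-05). That r was 0.92 without ADPolB_veh 1 and AD_veh 4, the 2 mice farthest from the median, and 0.70 with centring. With the myelin list its r of 0.71 became 0.30 with centring (adjusted p = 0.16). Slc39a1 was not particular to the microglial list. Its r with the astrocyte markers was 0.77 (permutation, adjusted p = 6.92e-05), and 0.53 with centring (adjusted p = 0.00491). Slc41a1 had r = 0.57 with the myelin, 0.56 with the microglial and 0.65 with the astrocyte markers (rho = 0.63, 0.68 and 0.66, adjusted p = 0.00151, 0.00179 and 0.000307). With centring these were 0.13, 0.22 and 0.39, each with an adjusted p above the threshold. With the myelin marker mean as a covariate the Slc41a1 differences from WT_veh were 0.33 (unadjusted p = 0.00754) in ADPolB_veh and 0.29 (unadjusted p = 0.0119) in AD_veh. The part of marker levels in the group differences was not tested beyond these fits. Slc12a5 ran against the astrocyte markers (r = -0.73, rho = -0.74, permutation p = 1e-05, adjusted p = 6.92e-05), with -0.72 without AD_UA 3 and WT_veh 6 and -0.55 with centring. Kcnq5 and Fxyd5, which stood out between groups, had r values of -0.11 and -0.06 with myelin markers. With centring Kcnq5 had r = -0.42 (rho = -0.44, adjusted p = 0.0373) and Fxyd5 had r = -0.40 (rho = -0.37, adjusted p = 0.0523).

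For the striatal markers the mice fall into 4 high ones and 31 others, so an r over all mice, as in the heat map, rests largely on those 4. Over all mice 7 of the 23 covaried with the list (5 with it, 2 against), beside 26.1% of all genes (13.3% and 12.8%). Among the 31, 0 of the 23 genes covaried with the mean of Adora2a and Pde1b at an adjusted p below 0.05. Atp2b2 had r = 0.24 and rho = 0.22 there (permutation p = 0.19 and 0.236, adjusted p = 0.346 for r). Without only AD_veh 2, AD_UA 3 and AD_UA 8 it had r = 0.56 and rho = 0.39 (adjusted p = 0.00886 and 0.0792), a relation that rests on ADPolB_UA 6. Cacng8 was below its group median in 3 of the 4 high mice, with 10.13 in AD_veh 2, 10.39 in AD_UA 3, 10.44 in AD_UA 8 and 10.93 in ADPolB_UA 6, against group medians of 10.93 in ADPolB_UA, 10.90 in AD_UA and 11.43 in AD_veh.

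**Figure D4:**
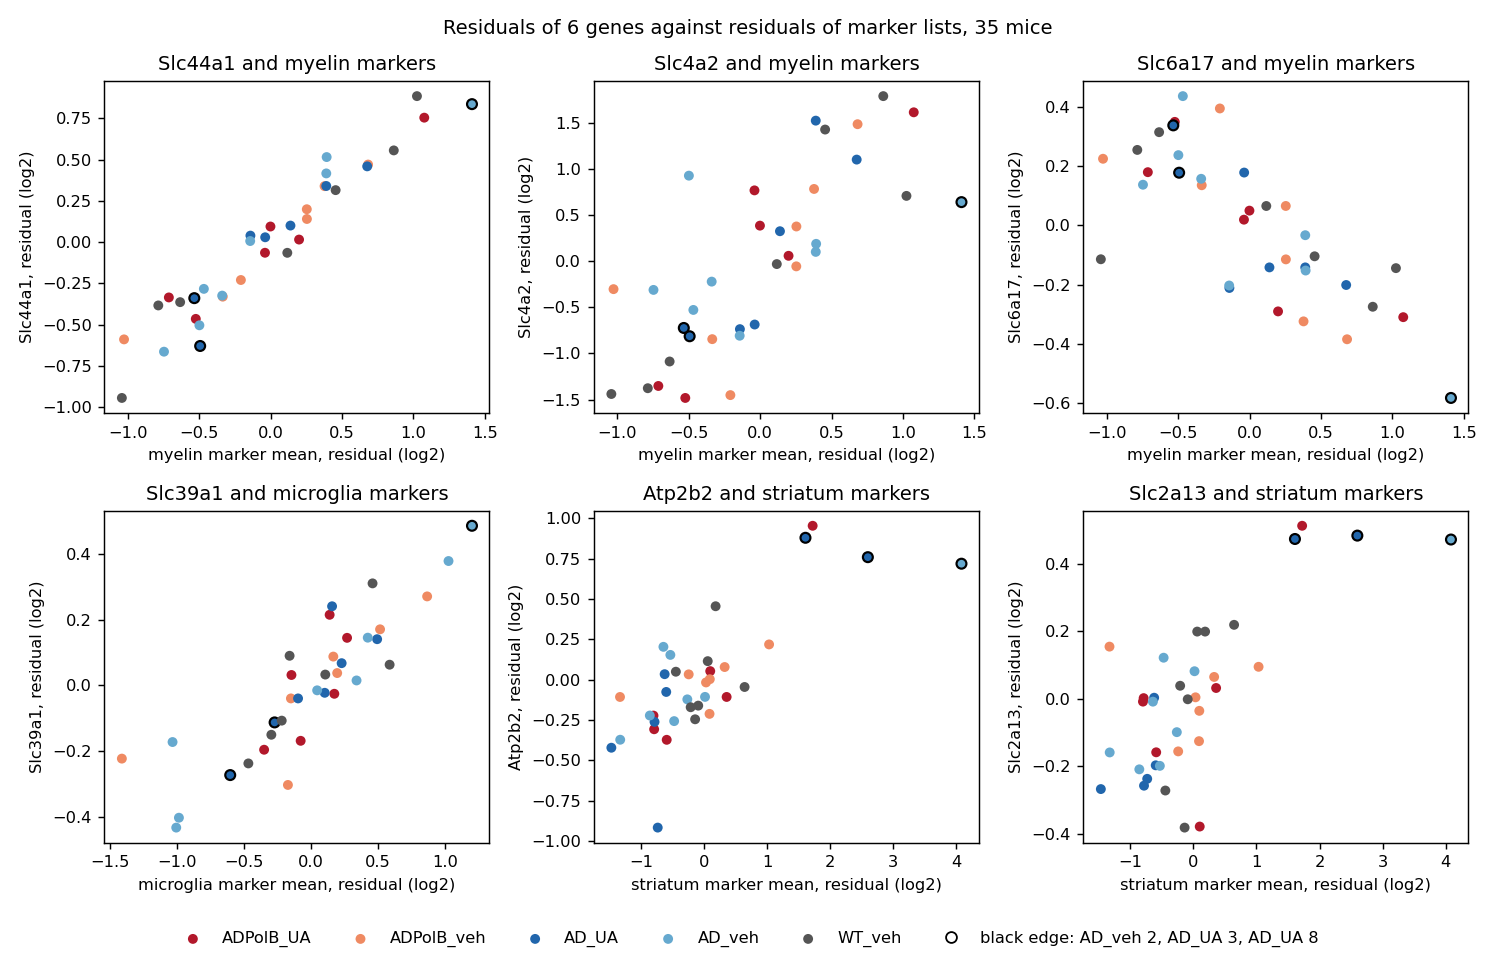
Residuals on the log2 scale of 6 genes (y axes) against residuals of marker list means (x axes) in 35 mice, after removal of group and sex, with colours for groups and black edges for AD_veh 2, AD_UA 3 and AD_UA 8. Slc44a1 rises along the myelin axis (r = 0.96), Slc6a17 descends along it (r = -0.76), and the high Atp2b2 and Slc2a13 values sit in 4 mice at the right of the striatal axis.

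Some pairs of the 23 genes varied together and others in opposite directions. Over the 253 pairs the residual r had a median of 0.02, a highest value of 0.80 for Slc44a2 with Slc39a1 and a lowest of -0.73 for Slc25a20 with Slc12a5. These are descriptions over 35 mice, in which both genes of a pair were read in the same sample of each mouse. Slc44a1 with Slc39a1 stood at 0.78, Slc2a13 with Slc12a5 at 0.77, Slc44a2 with Slc44a1 at 0.77 and Slc2a13 with Atp2b2 at 0.75. On the opposite side were Slc6a17 with Slc44a1 at -0.72 and Slc41a1 with Slc12a5 at -0.70.

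A further 16 genes of membrane transport that the name rule leaves out (receptor channels, gap junction proteins, proton pumps, ABC transporters and scramblases) were read in the same fits, and 0 of them passed the threshold in any comparison. An unadjusted limma p below 0.05 was found for 1 of 16 in AD_veh against WT_veh, beside 6.58% of all genes. In ADPolB_veh against WT_veh it was found for 3 of 16, beside 25.8% of all genes. The smallest p in both was that of Ano6, a scramblase and ion channel, with differences of 0.32 (adjusted p = 0.531) and 0.43 (adjusted p = 0.178). For Urolithin A, such a p was found for 1 of 16 in AD_UA against AD_veh, beside 9.34% of all genes. It was also found for 1 of 16 in ADPolB_UA against ADPolB_veh, beside 5.66%. Gja1, the astrocyte gap junction protein, differed by -0.35 in AD_UA against AD_veh (adjusted p = 0.393). The lowest AD_UA value of Gja1, 10.36 against a group median of 10.91, was that of AD_UA 3, which is high in striatal markers. The difference without the mice high in striatal markers is not given here. Gabrg1, a GABA receptor subunit, differed by 0.60 in ADPolB_UA against ADPolB_veh (adjusted p = 0.563).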

How the data were processed

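Hippocampal RNA of 35 mice was read on the NanoString platform. The authors deposited 1 table of normalized log2 values for 760 genes, made with Rosalind per the series text. The reference genes of that normalization and the raw counts are not part of the material at hand. No scaling was added. Genes were tested with limma 3.58.1 in R 4.3.3 on all 35 mice, with group and sex as terms, and p-values were adjusted (Benjamini-Hochberg) over the 760 genes of each comparison at a threshold of 0.05. Differences are on the log2 scale, and unadjusted p-values are limma's as well.

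Covariation used residuals after group and sex, with 100000 permutations and p-values adjusted over 3763 relations of all genes with 5 marker lists, where the written plan had a narrower family (python 3.11.15, numpy 2.4.6, scipy 1.17.1). Of 10 marker lists, 5 had at least 2 measured genes: myelin (21 of 31), microglia (8 of 19), astrocyte (2 of 10), endothelium (4 of 11) and striatum (2 of 16). Choroid plexus and inhibitory neurons had 1 gene each, and excitatory neurons, thalamus and dentate or CA fields 0. The genes described, the lists and the settings were chosen with earlier results of these data known. Per comparison the text names members past the threshold, or else the 5 with the smallest p, and gives group ranges for the first 2 of those, where they are reported. The fits were tested on simulated data.

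All mice are separate animals per the labels, and the most equal pair of 595 shared 4.21% of genes within 0.005. The replicate numbers did not pair mice: the median r of 62 same-number pairs was -0.03 and that of 427 other pairs 0.00. Alternatives were centring, quantile normalization, sample weights, no sex term, only the groups compared, trended and robust moderation, removal of the dimmest 25% of genes, a replicate block, leaving out each mouse, and, added after the data were seen, marker means as covariates and leaving out mice high in striatal markers. Some genes, 1 of the 23 among them, are counted in the totals and not reported here by name.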

Additional observations from a re-analysis of the deposited data

Results flagged for a closer look

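In 7 of 115 combinations of gene and group, 1 mouse lay far from the rest of its group, and chance alone marks about 1 in 20 groups. Atp2b2 stood at 12.42 in ADPolB_UA 6, against at most 11.52 in the others. Cacng8 stood at 10.13 in AD_veh 2, where the nearest mouse had 11.0, and Slc2a13 stood at 9.73 in the same mouse, where the nearest had 9.37. AD_veh 2 and ADPolB_UA 6 are among the 4 mice highest in striatal markers, and the part of those markers in these values was not tested. Atp2b1 stood at 12.1 in AD_veh 3 (nearest 12.76), and Slc5a3 at 7.69 in AD_veh 8 (nearest 8.5). Slc8a2 stood at 10.59 in AD_UA 5 (nearest 11.09), and Kcnq5 at 7.77 in WT_veh 5 (nearest 8.3).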

How the results depend on the processing

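No gene of the 23 passed the threshold as reported. Over 60 named values and 1831 values under alternatives, 0 reversed and 26 newly passed the threshold, 24 of them with sample weights. With sample weights, which gave AD_veh 2 the lowest weight (0.107), the numbers past the threshold and at an unadjusted p below 0.05 were 15 and 16 for ADPolB_veh against WT_veh, 6 and 8 for ADPolB_veh against AD_veh, 2 and 8 for ADPolB_UA against ADPolB_veh, 2 and 7 for AD_UA against WT_veh, 8 and 15 for ADPolB_UA against WT_veh, 2 and 6 for ADPolB_UA against AD_UA, 13 and 13 for the transgenic mean against WT_veh, and 15 and 17 over the 5 groups. They also gave 7 at an unadjusted p below 0.05 for AD_veh against WT_veh, 3 past the threshold for Urolithin A averaged, and 5 unadjusted for the interaction. Weights act on all genes, and the share of all genes past the threshold with them is not given here. The counts with weights are therefore not a result about the 23 genes. Counts under the other settings, and those above with mice left out, stand without that share too. The other counts are at an unadjusted p below 0.05. With the replicate block they were 1 for ADPolB_veh against AD_veh, AD_UA against AD_veh and ADPolB_UA against AD_UA, and 2 for the transgenic mean and the interaction, with 0 past the threshold in all. With the myelin mean as covariate they were 1 for ADPolB_veh against WT_veh, 2 for the transgenic mean and 3 for the interaction, and 1 gene passed the threshold for sex. Centring gave 1 for ADPolB_veh against AD_veh, 4 for ADPolB_UA against AD_UA and 3 for the interaction. Quantile normalization gave 5, 2 and 4 for ADPolB_UA against AD_UA, the transgenic mean and the interaction. ADPolB_UA against AD_UA gave 5 with no sex term. Fits of only the groups compared gave 5 for ADPolB_UA against ADPolB_veh and 5 against WT_veh. Without AD_veh 2, AD_UA 3 and AD_UA 8 the counts were 1 for AD_UA against AD_veh, 5 for ADPolB_UA against ADPolB_veh, 1 for AD_UA against WT_veh, 4 for ADPolB_UA against WT_veh and 1 for ADPolB_UA against AD_UA. The striatal mean as covariate gave 2 for the interaction. Leaving out each mouse gave 0 to 0 past the threshold, and 0 to 1 for AD_UA against WT_veh. The unadjusted counts then ran from 3 to 5 for AD_veh against WT_veh, 2 to 7 for ADPolB_veh against WT_veh, 1 to 3 for ADPolB_veh against AD_veh, 1 to 5 for AD_UA against AD_veh, 2 to 5 for ADPolB_UA against ADPolB_veh, 1 to 3 for AD_UA against WT_veh, 0 to 3 for ADPolB_UA against WT_veh, 1 to 8 for ADPolB_UA against AD_UA, 2 to 6 for the transgenic mean, 4 to 7 for Urolithin A averaged, 1 to 4 for the interaction, 2 to 3 for sex and 3 to 6 over the 5 groups. Covariation with the astrocyte list gave 6 with centring. The endothelial list gave 1 with centring, 0 without the farthest mice, 0 without AD_veh 2, AD_UA 3 and AD_UA 8, and 1 with ADPolB_UA 6 left out as well. The striatal list gave 4, 4, 2 and 0 under those settings. The cause of these changes was not tested.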
